A study of Sorghum bicolor with 5 samples.

Results

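In young sorghum leaves, 33 of 35567 gene rows stood clearly lower in the 2 plants of the line epi-F3 high than in every plant of the line epi-F3 low. They were selected on CPM in these 5 plants, where CPM is the count of a gene over the sum of gene counts of its library, times 1000000. A gene was taken when its CPM was at least 1 in every epi-F3 low plant and when the lowest of those 3 values was at least 1.5 times the higher of the 2 epi-F3 high values. Of all gene rows, 16115 passed the level limit, and 33 of these also passed the separation. Since the contrast between the lines chose the genes, their levels in the 2 lines are given as a description and carry no test.

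Epi-F3 high (line 68, the enhanced line of the labels) is represented by plants 1 and 3, and epi-F3 low (line 15, the non-enhanced line) by plants 1, 2 and 3, with 1 library per plant. Both lines share the inbred Tx430 background and descend from crosses of wild-type Tx430 with transgene-null progeny of plants in which an RNAi transgene had suppressed *MSH1*, a nuclear gene whose product works in plastids and mitochondria. Each line is a single selected line, epi-F3 high grew faster than epi-F3 low, and wild-type plants were not analysed here. The leaves came from 4-week-old greenhouse plants, which the labels call biological replicates, and 1 more plant of epi-F3 high that the study describes was not analysed here.

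The 23 genes with an Arabidopsis match are of many kinds. By these closest Arabidopsis proteins, they include enzymes of specialised and amino acid metabolism, transporters, regulators of transcription and of mRNA, a heat shock protein and a cell wall enzyme. Plants use cytochrome P450 enzymes and acyltransferases to build defence compounds and lignin, and they use aminotransferases, amino acid permeases and phosphate exporters to move nitrogen and phosphorus between organs. LSM and SPT5 proteins act on RNA itself, the LSM ring in splicing and mRNA decay and SPT5 in the elongation of transcripts. Roles are stated for the Arabidopsis gene and were not measured in sorghum. The matches come from a table of the study that holds only genes it chose as differing between these lines. Other sorghum genes with the same match may be missing from it, so the levels below are those of single genes.

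Libraries held 48372266 and 59493403 counts in genes for epi-F3 high and 58755600 to 68979436 for epi-F3 low. Counts outside any annotated gene took 7.07% and 5.21% in epi-F3 high plants 1 and 3, against 3.77 to 5.37% in epi-F3 low. The summed level of 5 light-harvesting and photosystem genes was 2684 and 4482 CPM in epi-F3 high plants 1 and 3, against 4832, 4435 and 8667 CPM in epi-F3 low plants 1, 2 and 3, so that genes of green leaf tissue were present in every plant. The summed level of the genes paired with *MCM2* to *MCM7*, the replication helicase of dividing cells, was 25.97 and 371.5 CPM in epi-F3 high plants 1 and 3, against 48.0, 26.4 and 42.9 CPM in epi-F3 low plants 1, 2 and 3. The 2 epi-F3 high plants therefore lay far apart in this measure, none of the 6 helicase genes or the 5 photosynthesis genes is among the 33, and their part in the levels below was not tested. Both sets were taken from the study's table of Arabidopsis homologs, which holds only genes that the study chose as differing between these lines. Differences between the lines in these sums are therefore no neutral check of the tissue. In leaf RNA, fewer cells of a type and less RNA per cell cannot be told apart.

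Across the 33 genes the mean of epi-F3 high was 1.65-fold to 25.9-fold lower than that of epi-F3 low, with a median of 3.27-fold. It was at least 5-fold lower in 6 genes, at least 3-fold lower in 18 and less than 2-fold lower in 3. Most of the genes were weakly expressed: the mean in epi-F3 low was under 5 CPM in 21 genes, at least 10 CPM in 9 and at least 50 CPM in 3. In 19 genes both epi-F3 high plants had fewer than 100 counts, although no gene was at 0 in either plant. The mirrored rule, applied to genes higher in both epi-F3 high plants, held 143 genes. With CPM on TMM-scaled library sizes these numbers were 46 lower and 99 higher genes, and all 33 genes were among the 46. That scaling moved the median gene by -0.11 on the log2 scale.

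**Figure D1:**
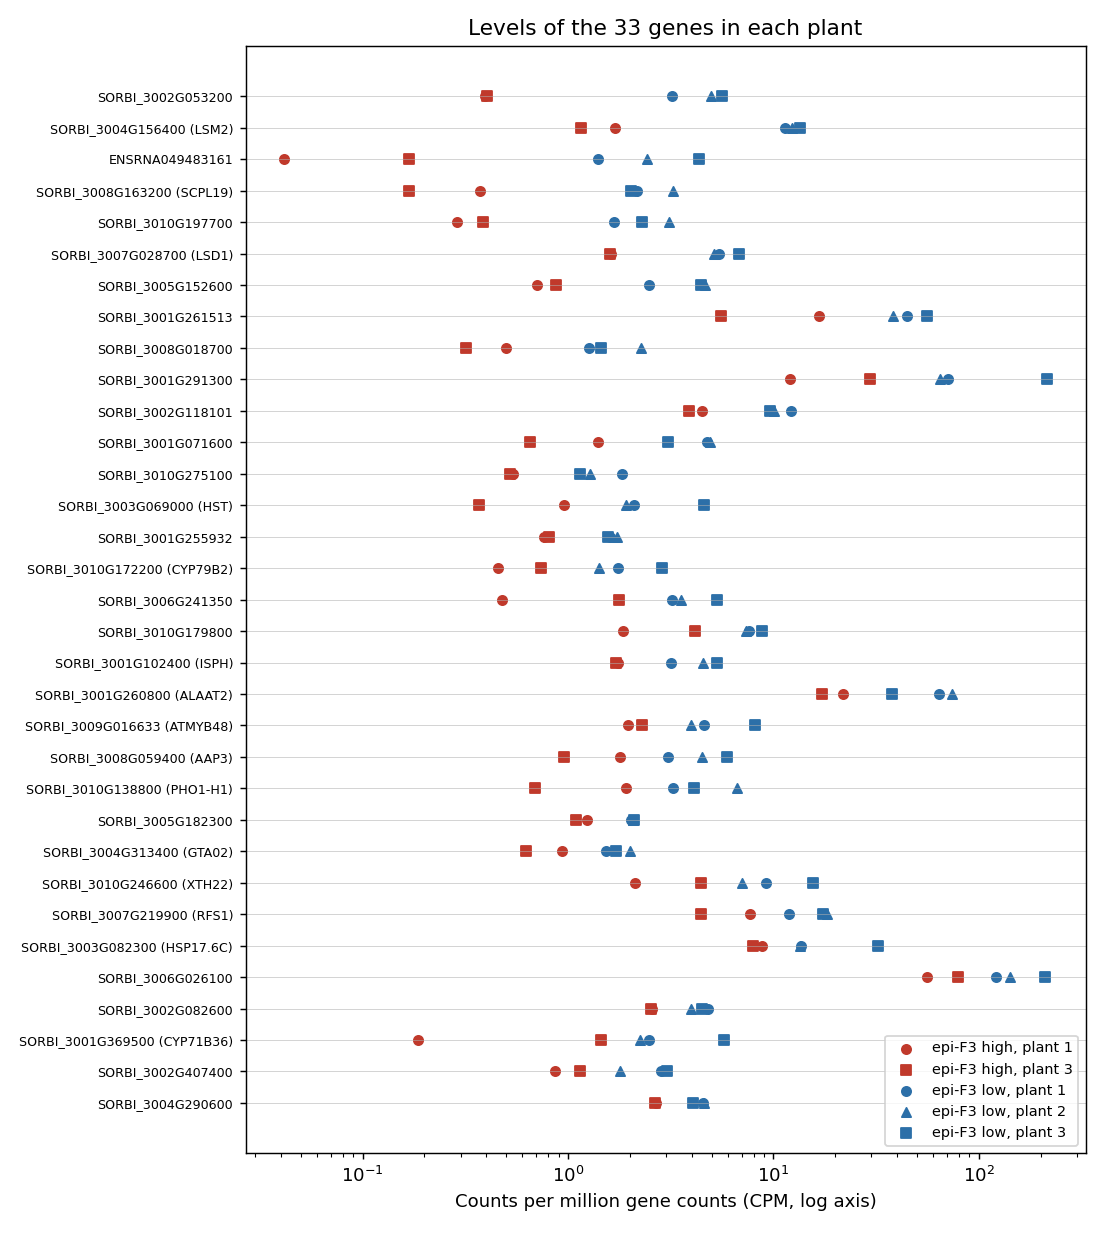
Level of each of the 33 genes in each plant in CPM on a log axis, with epi-F3 high in red and epi-F3 low in blue, circles for plant 1, triangles for plant 2 and squares for plant 3, and genes ordered by their separation. Every red point lies left of every blue point in its row because the rule asked for it, and the nearest points of the lines are 7.98-fold apart in the top row and 1.51-fold in the bottom row.

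Among genes that act on RNA, the gene paired with *LSM2*, a subunit of the Sm-like ring that binds U6 snRNA and takes part in mRNA decay, had one of the widest separations. *SORBI_3004G156400* (*LSM2*) stood at 1.70 and 1.16 CPM in epi-F3 high plants 1 and 3, against 11.4, 12.3 and 13.5 CPM in epi-F3 low plants 1, 2 and 3. The epi-F3 low plants lay close together, at 12.4 ± 1.02 CPM (SD, n = 3), and the epi-F3 high mean was 8.68-fold lower. *SORBI_3004G313400*, paired with *GTA02*, a homolog of the elongation factor SPT5, stood at 0.930 and 0.622 CPM in epi-F3 high plants, against 1.54, 2.01 and 1.70 CPM in epi-F3 low plants. Its difference was smaller, 2.25-fold, and rested on 45 and 37 counts in epi-F3 high. *SORBI_3001G071600*, paired with a GYF domain protein, stood at 1.41 and 0.656 CPM in epi-F3 high plants, against 4.76, 4.88 and 3.05 CPM in epi-F3 low plants, and its level in plant 1 of epi-F3 high was more than that of plant 3.

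Regulators of transcription and cell death were represented by a zinc finger and a MYB gene. *SORBI_3007G028700*, paired with *LSD1*, which holds back cell death in Arabidopsis leaves, stood at 1.61 and 1.597 CPM in epi-F3 high plants 1 and 3, against 5.44, 5.12 and 6.82 CPM in epi-F3 low plants 1, 2 and 3. The 2 epi-F3 high plants had nearly equal levels, and their mean was 3.61-fold lower. *SORBI_3009G016633*, paired with the R2R3 factor *ATMYB48*, stood at 1.96 and 2.30 CPM in epi-F3 high plants, against 4.57, 3.98 and 8.17 CPM in epi-F3 low plants. A neighbouring gene paired with the same Arabidopsis gene, *SORBI_3009G016600*, overlapped between the lines, at 8.58 and 13.1 CPM in epi-F3 high plants, against 17.7, 10.2 and 24.7 CPM in epi-F3 low plants. Plant 3 was the highest of the epi-F3 low plants in both copies, and only reads that mapped to 1 place were counted, so reads that fit both copies are in neither count.

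The 3 cytochrome P450 genes differed in how far apart their epi-F3 high plants lay. *SORBI_3010G197700*, paired with a putative P450 of no given name, stood at 0.289 and 0.387 CPM in epi-F3 high plants 1 and 3, against 1.68, 3.11 and 2.29 CPM in epi-F3 low plants 1, 2 and 3, and was 6.99-fold lower in the mean. *SORBI_3010G172200*, paired with *CYP79B2*, which turns tryptophan into indole-3-acetaldoxime in Arabidopsis, stood at 0.455 and 0.740 CPM in epi-F3 high plants, against 1.75, 1.41 and 2.87 CPM in epi-F3 low plants. *SORBI_3001G369500*, paired with *CYP71B36*, stood at 0.186 and 1.45 CPM in epi-F3 high plants, against 2.47, 2.25 and 5.73 CPM in epi-F3 low plants. Its 2 epi-F3 high plants were 7.77-fold apart, the widest gap of the 33 genes.

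Genes for acyl transfer and isoprenoid synthesis were also among the 33. *SORBI_3008G163200*, paired with *SCPL19*, a serine carboxypeptidase-like protein that works as an acyltransferase of sinapate esters in Arabidopsis, stood at 0.372 and 0.168 CPM in epi-F3 high plants 1 and 3, against 2.16, 3.23 and 2.03 CPM in epi-F3 low plants 1, 2 and 3. These values rest on 18 and 10 counts, and the mean was 9.16-fold lower. *SORBI_3001G102400*, paired with *ISPH*, the last enzyme of the plastid route to isoprenoid precursors, stood at 1.76 and 1.71 CPM in epi-F3 high plants, against 3.16, 4.56 and 5.33 CPM in epi-F3 low plants. The pair of epi-F3 high plants differed by far less than the epi-F3 low plants did.

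*SORBI_3003G069000* is paired with *HST*, here the shikimate hydroxycinnamoyltransferase of lignin synthesis, and lies among other genes paired with it. It stood at 0.951 and 0.370 CPM in epi-F3 high plants 1 and 3, against 2.09, 1.92 and 4.60 CPM in epi-F3 low plants 1, 2 and 3. The copy *SORBI_3003G069200* stood at 3.31 and 3.45 CPM in epi-F3 high plants, against 6.002, 4.99 and 7.997 CPM in epi-F3 low plants. The copy *SORBI_3003G068800* stood at 52.1 and 28.5 CPM in epi-F3 high plants, against 52.2, 62.2 and 141.6 CPM in epi-F3 low plants. Both copies were lower in each epi-F3 high plant than in each epi-F3 low plant, the last one by a margin far inside the spread of its plants, and neither met the 1.5-fold separation. The fourth copy in the study's table of Arabidopsis homologs, *SORBI_3003G068950*, had at most 0.174 CPM in any plant. That table holds only genes that the study chose as differing between these lines, so further copies may be missing from it. Since only uniquely mapped reads were counted, reads shared by these copies are missing from all of them, and the level of any 1 copy is uncertain to that extent.

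Nitrogen and phosphorus transport and metabolism were represented by an aminotransferase and 2 carriers. *SORBI_3001G260800*, paired with the alanine aminotransferase *ALAAT2*, which exchanges amino groups between alanine and glutamate, stood at 21.9 and 17.3 CPM in epi-F3 high plants 1 and 3, against 63.9, 74.0 and 37.9 CPM in epi-F3 low plants 1, 2 and 3. It had 1057 and 1027 counts in the plants of epi-F3 high and was 3.00-fold lower in the mean, with plant 3 as the lowest of the epi-F3 low plants. *SORBI_3008G059400*, paired with the amino acid permease *AAP3*, stood at 1.80 and 0.958 CPM in epi-F3 high plants, against 3.07, 4.49 and 5.95 CPM in epi-F3 low plants. *SORBI_3010G138800*, paired with *PHO1-H1*, a phosphate exporter that feeds the xylem in Arabidopsis, stood at 1.92 and 0.689 CPM in epi-F3 high plants, against 3.25, 6.64 and 4.11 CPM in epi-F3 low plants. In both carriers plant 1 was the higher of the epi-F3 high plants and plant 1 the lowest of the epi-F3 low plants.

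**Figure D2:**
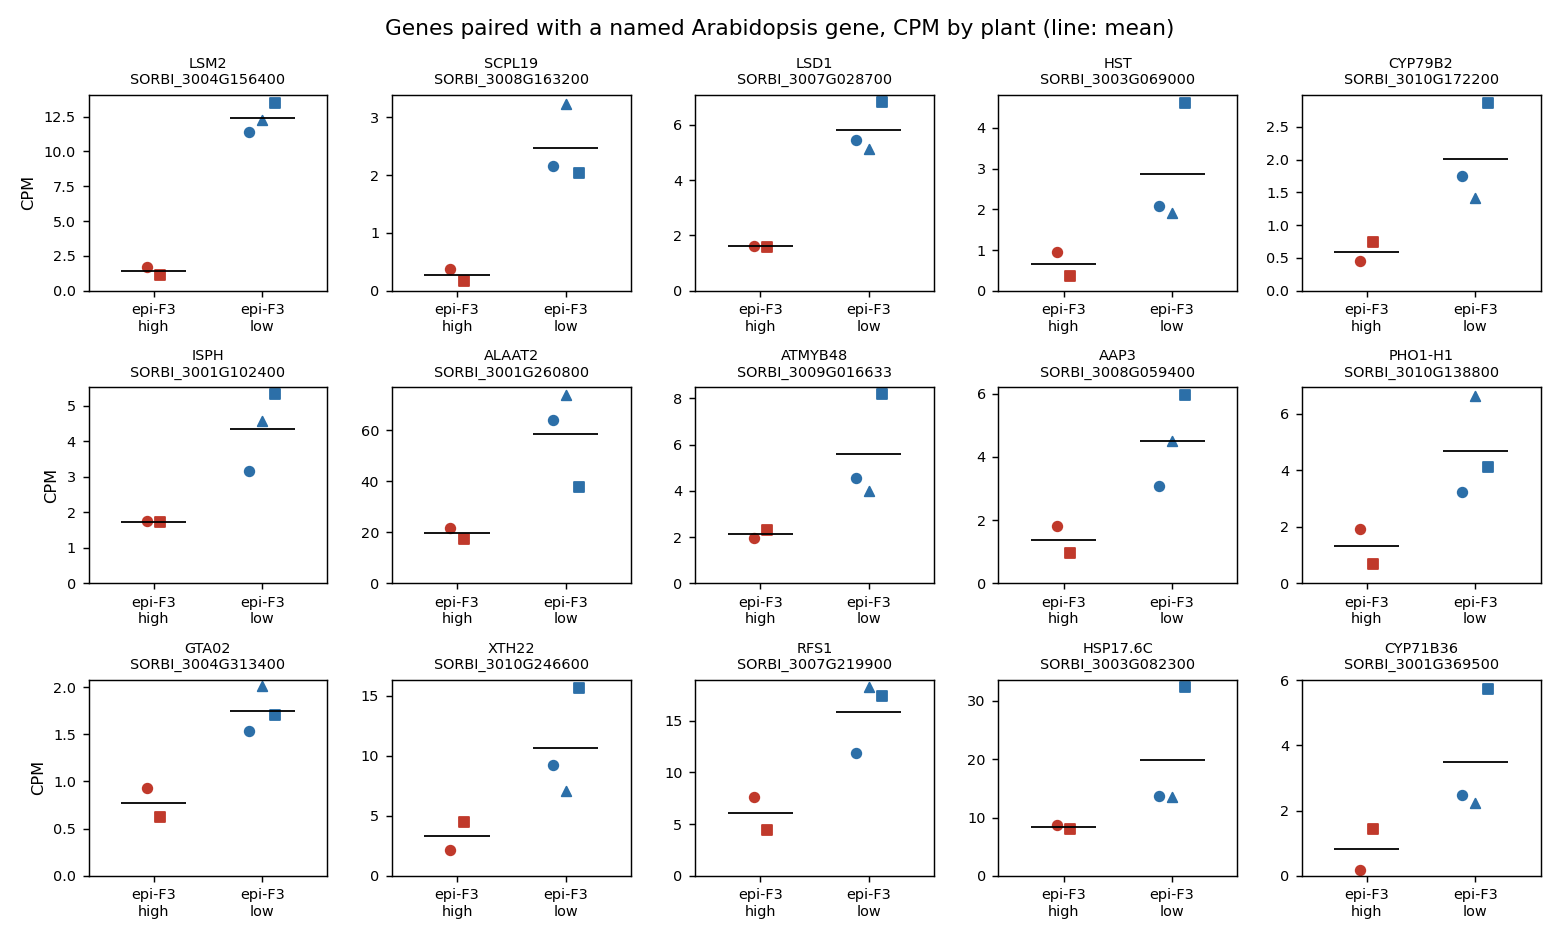
CPM of the 15 genes paired with a named Arabidopsis gene, 1 panel per gene with its own axis starting at 0, epi-F3 high left in red and epi-F3 low right in blue, circles for plant 1, triangles for plant 2, squares for plant 3 and a line at each mean. The epi-F3 low plants of *LSM2* sit close together between 11.4 and 13.5 CPM, whereas *HST*, *HSP17.6C* and *CYP71B36* each have 1 epi-F3 low plant, plant 3, well above the other plants.

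Stress and carbohydrate genes were represented by a chaperone and 2 enzymes. *SORBI_3003G082300*, paired with *HSP17.6C*, a small heat shock protein that keeps unfolded proteins from aggregating, stood at 8.77 and 7.95 CPM in epi-F3 high plants 1 and 3, against 13.7, 13.5 and 32.4 CPM in epi-F3 low plants 1, 2 and 3. *SORBI_3007G219900*, paired with *RFS1*, a probable galactinol-sucrose galactosyltransferase of raffinose synthesis, stood at 7.65 and 4.42 CPM in epi-F3 high plants, against 11.9, 18.3 and 17.4 CPM in epi-F3 low plants. *SORBI_3010G246600*, paired with *XTH22*, which cuts and rejoins the xyloglucan of the cell wall, stood at 2.11 and 4.44 CPM in epi-F3 high plants, against 9.23, 7.06 and 15.6 CPM in epi-F3 low plants. In *HSP17.6C* and *XTH22* plant 3 stood above the other epi-F3 low plants, while in *RFS1* plant 1 stood below them.

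Of the other members with an Arabidopsis match, *SORBI_3010G179800* is paired with an F-box protein with kelch repeats, the part of a ubiquitin ligase that picks its substrates. It stood at 1.86 and 4.13 CPM in epi-F3 high plants 1 and 3, against 7.58, 7.37 and 8.83 CPM in epi-F3 low plants 1, 2 and 3. *SORBI_3008G018700*, paired with a leucine-rich repeat protein of the disease resistance family, stood at 0.496 and 0.319 CPM in epi-F3 high plants, against 1.26, 2.26 and 1.44 CPM in epi-F3 low plants. In the study's table, which holds only genes that the study chose as differing between these lines, 2 other genes share this Arabidopsis match. They lay in opposite directions. *SORBI_3004G017000* stood at 2.73 and 2.72 CPM in epi-F3 high plants, against 3.03, 6.37 and 6.48 CPM in epi-F3 low plants, and *SORBI_3005G127800* at 13.1 and 14.4 CPM in epi-F3 high plants, against 6.21, 6.71 and 8.79 CPM in epi-F3 low plants.

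*SORBI_3002G053200*, whose Arabidopsis match carries no name, headed the ranking by separation. It stood at 0.393 and 0.403 CPM in epi-F3 high plants 1 and 3, from 19 and 24 counts, against 3.22, 4.95 and 5.59 CPM in epi-F3 low plants 1, 2 and 3. Its mean was 11.5-fold lower in epi-F3 high. *SORBI_3002G053350*, 3 counted loci further along and chosen after its values were seen, had 0 counts in both epi-F3 high plants, against 59, 53 and 61 counts in epi-F3 low plants. Against a floor of 3 counts over epi-F3 high, this is at least 32.4-fold lower, counting error only. The 2 loci between them had no counts in any plant. *SORBI_3010G275100* (a DUF833 protein), *SORBI_3002G082600* (a LURP-one-related protein) and *SORBI_3002G407400* (an alcohol dehydrogenase-like protein) were 2.68-fold, 1.73-fold and 2.53-fold lower in the mean.

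The remaining 10 members have no Arabidopsis match in the sources used here and are given by identifier only. *ENSRNA049483161* had 2 and 10 counts in epi-F3 high plants 1 and 3, against 97, 142 and 279 counts in epi-F3 low plants 1, 2 and 3. With counts pooled over the plants of each line, this is 24.2-fold lower in epi-F3 high, with an exact 95% counting interval of 13.7 to 47.2. The interval holds counting error only, leaves out the spread between plants and is no test of the lines, since this contrast chose the gene. *SORBI_3006G026100* had the highest mean level of the 33 genes in epi-F3 low, with 55.6 and 79.3 CPM in epi-F3 high plants, against 121, 142 and 210.4 CPM in epi-F3 low plants. *SORBI_3001G261513* stood at 16.6 and 5.55 CPM in epi-F3 high plants, against 44.7, 38.4 and 56.1 CPM in epi-F3 low plants, so that the gap between the 2 epi-F3 high plants was 2.99-fold.

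*SORBI_3001G291300* varied most among the epi-F3 low plants. It stood at 12.03 and 29.4 CPM in epi-F3 high plants 1 and 3, against 70.6, 65.0 and 215 CPM in epi-F3 low plants 1, 2 and 3. The next locus, *SORBI_3001G291200*, chosen after its values were seen and outside the separation, stood at 7.38 and 20.1 CPM in epi-F3 high plants, against 25.5, 24.5 and 54.3 CPM in epi-F3 low plants. Both loci ranked the 5 plants in the same order. Whether the count used strand is not given in the sources used here, so reads of overlapping or antisense genes cannot be told apart.

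The other unnamed genes were *SORBI_3005G152600* at 4.90-fold lower in the mean, *SORBI_3006G241350* at 3.58-fold, *SORBI_3002G118101* at 2.53-fold, *SORBI_3001G255932* at 2.08-fold, *SORBI_3005G182300* at 1.77-fold and *SORBI_3004G290600* at 1.65-fold. *SORBI_3005G152600* stood at 0.703 and 0.874 CPM in epi-F3 high plants, against 2.48, 4.66 and 4.45 CPM in epi-F3 low plants. *SORBI_3002G118101* stood at 4.49 and 3.90 CPM in epi-F3 high plants, against 12.1, 10.01 and 9.62 CPM in epi-F3 low plants. *SORBI_3005G182300*, with 1.24 and 1.09 CPM in epi-F3 high plants, against 2.03, 2.08 and 2.09 CPM in epi-F3 low plants, was the most even member within epi-F3 low.

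Next to the limit of 1.5, the 3 genes just inside were *SORBI_3004G290600* at 1.51, *SORBI_3006G026100* at 1.53 and *HSP17.6C* at 1.54. Just outside stood *SORBI_3004G088000* at 1.499, *SORBI_3003G005700*, paired with the kinase *AGC1-7*, at 1.49, and *SORBI_3010G262466*, paired with the glyceraldehyde-3-phosphate dehydrogenase *GAPC1*, at 1.48. *SORBI_3010G262466* stood at 49.9 and 47.4 CPM in epi-F3 high plants, against 75.6, 74.1 and 115 CPM in epi-F3 low plants. A separation of at least 2 left 14 of the 33 genes and one of at least 25% above held 88 genes, the 33 among them.

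Within the lines, the 2 epi-F3 high plants differed by 1.01-fold to 7.77-fold, with a median of 1.46-fold, against 1.32-fold over all 16115 genes that passed the level limit. They were more than 2-fold apart in 11 of the 33 genes (33.3%), against 15.0% of those 16115 genes. Among the epi-F3 low plants the highest was 1.03-fold to 3.31-fold above the lowest, with a median of 1.69-fold, against 1.35-fold over all these genes. Plant 3 was the highest epi-F3 low plant in 19 of the 33 genes and plant 1 in 3, while over all 16115 genes plant 3 was the highest in 4783 and plant 1 in 6940. Plant 1 was the higher epi-F3 high plant in 19 genes and plant 3 in 14, while over all 16115 genes plant 1 was the higher in 7195 and plant 3 in 8920. The rule bounds these values on one side, so they carry no test. The 16115 genes were also not matched to the 33 for level, and 21 of the 33 had an epi-F3 low mean under 5 CPM.

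**Figure D3:**
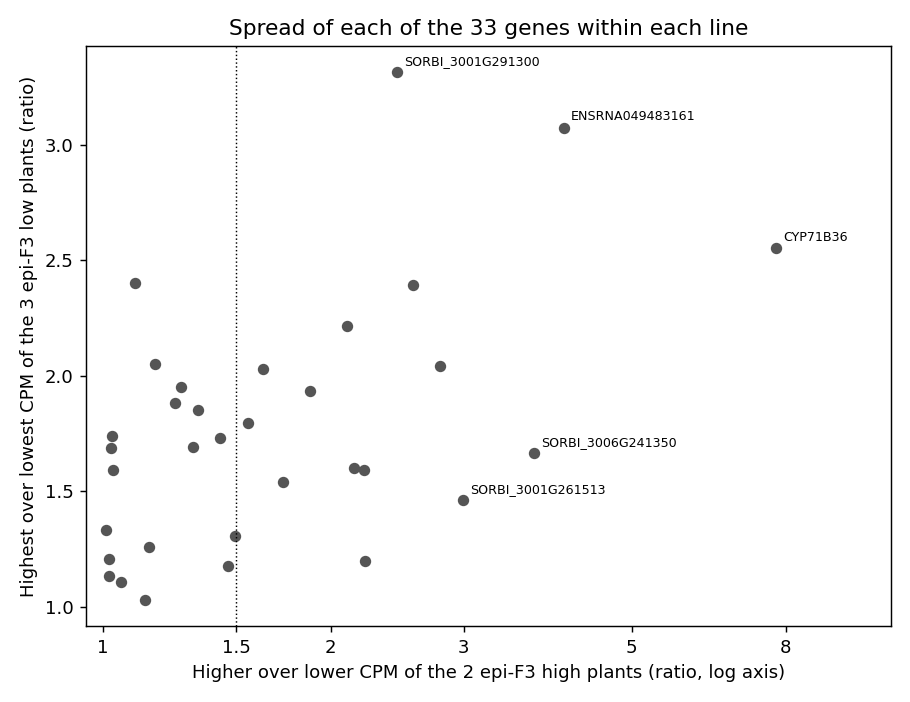
Each point is 1 of the 33 genes, with the ratio of the higher to the lower epi-F3 high plant on a log x axis and the ratio of the highest to the lowest epi-F3 low plant on the y axis, and a dotted line at 1.5. In 18 genes (54.5%) the epi-F3 high plants were less than 1.5-fold apart, against 65.6% of the 16115 genes past the level limit. Those 16115 genes were not matched to the 33 for level. *CYP71B36* stands farthest right at 7.77.

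By locus number, 32 of the 33 genes can be placed on chromosomes, and they did not lie in runs. The closest pair, *SORBI_3001G260800* (*ALAAT2*) and *SORBI_3001G261513* on chromosome 1, had 34 counted loci between them. Chromosome 10 held 6 of the 32 genes (18.8%), against 8.39% of the genes past the level limit, and chromosome 1 held 7 (21.9%), against 18.4%. In 660 of the 16115 genes past the level limit, or 4.10%, both epi-F3 high plants lay below all epi-F3 low plants. Of 22 loci directly beside a member and past the same limit, 3 did so, 19 overlapped between the lines and 0 lay above. The log2 ratio of mean CPM, epi-F3 high over epi-F3 low, had a median of -1.71 over the members, which the rule set, and 0.04 over those 22 loci. Over all genes past the level limit the median was 0.11, with a small offset added to both means.

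**Figure D4:**
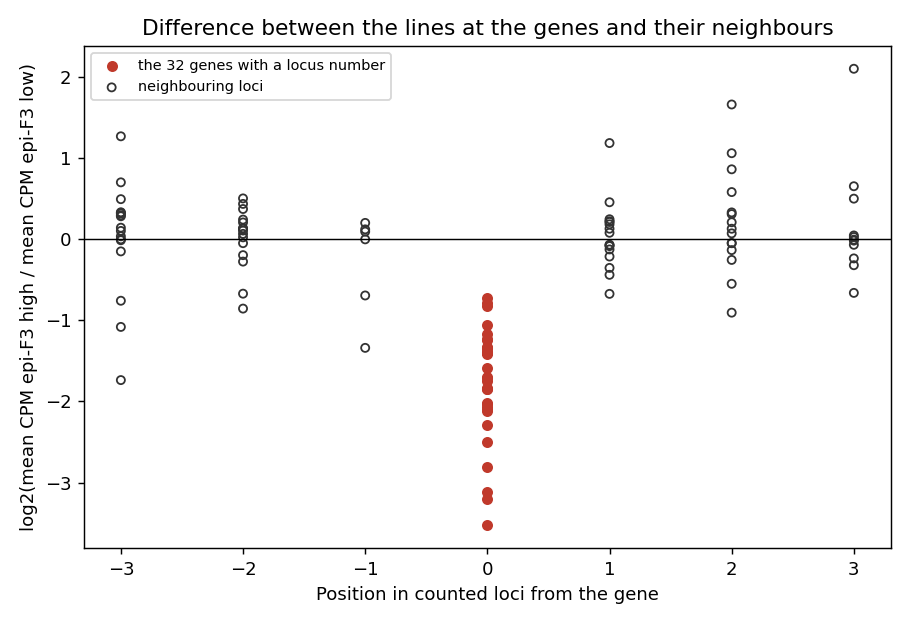
The y axis gives the log2 ratio of mean CPM in epi-F3 high over epi-F3 low and the x axis the position in counted loci from a member, with the 32 members at 0 in red and their neighbours with at least 1 CPM in each epi-F3 low plant as open circles. The members lie between -3.53 and -0.73 by the choice of genes, and the loci directly beside them lie between -1.34 and 1.18 around a median of 0.04.

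Gene lists were text patterns over the Arabidopsis homologs of a table of 1088 genes, which the study chose as differing between these lines, so directions in them are not independent evidence. The table held 23 of the 33 genes, 16 of which fell into 11 of 18 lists. In the cytochrome P450 list 3 of 23 genes were members, and the mean was lower in epi-F3 high for 10 and higher for 13. In 8 of the 23, which include the 3 members by the rule, both epi-F3 high plants lay below all epi-F3 low plants. In 6 they lay above all of them. The median log2 fold change of this list was 1.31. Over all genes tested the median was 0.02, but this is no like baseline, since the listed genes were chosen as differing. In the nitrogen and amino acid list 2 of 23 were members (*ALAAT2* and *AAP3*), 17 had a lower mean and 6 a higher one, with a median of -0.85. The photosynthesis and chlorophyll list had no member, although the means of all 12 of its genes were lower in epi-F3 high (median -0.70) and in 7 both epi-F3 high plants lay below all epi-F3 low plants. The same held for 277 of the 1088 genes of the table (25.5%) and for the 4.10% of genes past the level limit given above. The 29 chromatin and small RNA genes also had no member. Means were higher for 20 of them and lower for 9. Both epi-F3 high plants lay above all epi-F3 low plants in 1 of the 29 genes and below them in 7. Over the 1088 genes of the table, both lay above in 438 (40.3%) and below in 277 (25.5%). Among 65 transcription factors, 2 were members (*LSD1* and *ATMYB48*), and 19 had a lower and 46 a higher mean. The quasi-likelihood test called no gene of the 18 lists, 0 lower and 0 higher. The exact test called *ALAAT2*, *SORBI_3010G197700* and *SCPL19* as lower among them. As higher it called 3 of 66 genes of the immune receptor list and 2 of 41 kinases. It also called 1 of 65 transcription factors and 1 of 51 protein turnover genes higher, and lists can share genes. Over all 23098 genes the exact test called 36 higher and 11 lower.

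Because the rule used the contrast between the lines, the number of members called by a fit over all genes says nothing further about them. With edgeR's quasi-likelihood test on 23098 genes, 0 genes were called lower in epi-F3 high (0%) with adjusted p up to 0.1 and log2 fold changes of 0.5 or more in size as thresholds, and 1 was called higher. None of the 33 genes was called by this test, nor by limma-voom, which called 0 genes in either direction. At an unadjusted p under 0.05, 222 genes were lower (0.961%), 29 of them among the 33. The exact test of edgeR called 11 genes lower (0.0476%), 9 of which were members, and DESeq2 called 25 (0.108%), 16 of which were members. Without epi-F3 low plants 1, 2 and 3, the exact test called 13, 7 and 9 genes lower, of which 7, 4 and 5 were members. The 9 genes of the exact test were *SORBI_3002G053200*, *LSM2*, *ENSRNA049483161*, *SCPL19*, *SORBI_3010G197700*, *SORBI_3001G261513*, *SORBI_3001G291300*, *ALAAT2* and *SORBI_3006G026100*. DESeq2 called these and 7 more, among them *LSD1*, *XTH22* and *RFS1*. Fitted log2 fold changes of the 33 genes ran from -4.79 to -0.83, with a median of -1.83.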

How the data were processed

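Deposited counts per gene of 5 libraries were used. Per the labels and the study's methods, the authors trimmed reads with Trim Galore 0.4.1, aligned them with STAR 2.7.3a to the NCBIv3 genome and kept uniquely mapped reads, which QoRTs counted per gene. The 5 summary lines of each file stayed out of library sizes. CPM is a count over the sum of gene counts. The 23098 genes with at least 10 counts over all libraries were fitted with edgeR 4.0.16 (R 4.3.3; TMM, quasi-likelihood), with DESeq2 1.42.0 and limma 3.58.1 as alternatives. P-values measure only the spread between these plants. The members and gene lists were chosen with earlier results of these data known. All 33 members are named, and so are the 3 genes just outside the limit. Other genes named one by one are said to be chosen later or to share a homolog. Names are those of Arabidopsis homologs in the study's table, since the RefSeq gene table matched 0 members. Leaf markers listed by identifier were not used, because no source used here pairs them with names. The rule leaves out 1 gene, which is not reported here.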

Additional observations from a re-analysis of the deposited data

How the results depend on the processing

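The rule held 14 genes at a separation of at least 2, 88 at a separation of at least 25% above and 11 at a CPM of at least 5. Without 1 plant it kept 67 to 300 genes, 300 being the most it keeps. It was met by 548 genes without epi-F3 high plant 3, where 24 of the 33 genes were among the 300 kept, and by 306 without epi-F3 high plant 1. Without epi-F3 low plants 1, 2 and 3 it held 90, 83 and 67 genes. All 33 genes were kept in these 4 cases. Leaving out a plant can only loosen the rule, so all 33 genes still met it by construction. Only the limit of 300 could drop any of them, so this is no test of their stability. Genes called between the lines numbered 1 in the quasi-likelihood test, 68 with DESeq2, 0 with limma-voom, 47 with the exact test, 12 without a filter and 0 with filterByExpr. A replicate block by plant number gave 70 calls and one by biological replicate number 7. Leaving out 1 plant gave 0 to 80 calls in the quasi-likelihood test, with 80 without epi-F3 high plant 1 and 27 without epi-F3 high plant 3, where 1 plant stands for the line and is assumed to vary like the others. Members called lower numbered 0 in the quasi-likelihood test, 16 with DESeq2, 9 with the exact test, 2 without a filter, 7 with the replicate block by plant number and 0 with that by biological replicate number. In the quasi-likelihood test, leaving out 1 plant gave 0 to 2, with 2 without epi-F3 high plant 1 and 1 without epi-F3 high plant 3. In the exact test it gave 25 to 557 calls, with 557 without epi-F3 high plant 1, and 4 to 11 members called lower. Why the tools differ was not tested. Deviations from the line means correlated at 0.06 and 0.47 for plants of the same plant number and at 0.06 and -0.47 for those of the same biological replicate number. The pair of plants 1 is the same in both numberings, and the deviations of 2 plants from their mean mirror each other. With 2 pairs that are not independent, it cannot be said from these values if plants of a number belong together. Low counts limit the precision of most members, as 19 of them had fewer than 100 counts in both epi-F3 high plants.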
